A study of Mus musculus with 41 samples.

Results

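The genes described here are 10 transcripts that mark macrophages by where they live and where they come from, listed by symbol and read from a deposited table of 21249 genes, in which all 10 were found. Folr2, Lyve1, Timd4 and Mertk are used as markers of tissue-resident macrophages, Gata6 and Icam2 of macrophages of the peritoneal cavity, and Ly6c2 and Fcgr1 of cells that descend from blood monocytes. Cd163 and Adgre1 were listed without such a class, and the monocyte gene Ccr2, named with the monocyte-derived markers, is reported beside them. They were measured by bulk RNA sequencing of 41 whole endometriosis lesions in 11 groups.

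A uterine punch of 4 mm from a donor mouse had been stuck to the inner wall of a recipient's peritoneal cavity, in mice aged 12 to 16 weeks. Beginning on day 7, the mice were given 3 injections of interleukin-33 (IL-33, 1 µg), a cytokine that activates group 2 innate lymphoid cells (ILC2s), or of PBS into the cavity across 6 days. ILC2-competent mice were C57Bl/6J wild type, Id2fl/fl (floxed controls) and Nmur1iCre-eGFP (Cre controls), and ILC2-deficient mice carried both alleles (Nmur1iCre-eGFP Id2fl/fl), which remove Id2 in cells that have used the Nmur1-driven Cre. Each of these 4 genotypes had 4 IL-33-treated lesions. Further deficient groups received PBS alone (n = 4), IL-33 with added PBS (n = 4), or IL-33 after transfer of 250000 (n = 4) or 120000 ILC2s (n = 2) on the preceding day, and wild-type mice received IL-33 after 120000 ILC2s (n = 3). In lesion transfer, all under IL-33, 4 lesions came from Cre-control fragments placed into deficient mice, and 4 from deficient fragments placed into Cre controls. Elsewhere the recipient was assumed to share the fragment's genotype, since the labels name 1 genotype. Whether each replicate was a different animal is not in the labels, and the tests below therefore reflect sample spread that could be technical in part. In whole lesions, fewer cells of a type and less RNA per cell cannot be told apart.

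Macrophages of most tissues are a mixture of long-lived resident cells, which can maintain themselves by division, and cells that arrive as monocytes from the blood. Resident cells near vessels and in connective tissue carry the folate receptor beta (Folr2), the hyaluronan receptor LYVE-1 (Lyve1), the phosphatidylserine receptor TIM-4 (Timd4) and the receptor tyrosine kinase MerTK (Mertk), which takes up dying cells through the bridging ligands Gas6 and protein S. Large macrophages of the peritoneal cavity depend on the transcription factor GATA6, which retinoic acid induces, and carry the adhesion molecule ICAM-2. Classical monocytes carry Ly6C (Ly6c2) and the chemokine receptor CCR2, and cells derived from them carry the high-affinity IgG receptor CD64 (Fcgr1), whose transcription interferon induces. CD163 takes up haemoglobin bound to haptoglobin, and Adgre1 encodes F4/80, the general surface marker of mouse macrophages. Several of these genes are also used outside macrophages: Lyve1 by lymphatic endothelium, Icam2 by blood endothelium, Gata6 by mesothelium, Ly6c2 by some lymphocytes and plasma cells, and Timd4 by the Kupffer cells of the liver.

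Upstream sequences are printed for the 4 members that passed the test between hosts and had a RefSeq promoter entry, to show what lies before their starts. Entries (GRCm38.p6) were found for 6 of the 10 members, and the 250 bases before the start are given 5′ to 3′ in the gene's own direction. They are Fcgr1 (chr3:96293970-96294219, minus strand), Folr2 (chr7:101857191-101857440, minus strand, the farther upstream of 2 starts), Mertk (chr2:128698665-128698914, plus strand) and Cd163 (chr6:124304401-124304650, plus strand).
Fcgr1: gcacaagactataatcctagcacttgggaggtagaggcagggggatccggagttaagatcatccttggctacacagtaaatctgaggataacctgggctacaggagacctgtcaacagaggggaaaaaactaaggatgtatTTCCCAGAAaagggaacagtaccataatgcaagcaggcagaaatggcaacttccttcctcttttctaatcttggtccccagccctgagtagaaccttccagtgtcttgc
Folr2: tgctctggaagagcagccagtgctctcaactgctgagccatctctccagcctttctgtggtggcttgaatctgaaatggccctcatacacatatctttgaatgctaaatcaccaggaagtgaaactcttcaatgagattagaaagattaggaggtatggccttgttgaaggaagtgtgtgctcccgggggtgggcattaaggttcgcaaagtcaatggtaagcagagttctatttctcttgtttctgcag
Mertk: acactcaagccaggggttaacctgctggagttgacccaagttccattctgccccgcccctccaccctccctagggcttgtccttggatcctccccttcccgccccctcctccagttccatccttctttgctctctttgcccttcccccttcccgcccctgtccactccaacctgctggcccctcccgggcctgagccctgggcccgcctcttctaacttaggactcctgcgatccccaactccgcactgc
Cd163: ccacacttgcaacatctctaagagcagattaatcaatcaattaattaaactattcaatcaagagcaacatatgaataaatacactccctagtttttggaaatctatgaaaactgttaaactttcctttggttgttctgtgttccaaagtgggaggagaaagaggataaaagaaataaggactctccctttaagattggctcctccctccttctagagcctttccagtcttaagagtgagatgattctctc

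Capitals mark the single match found among 3 motifs, which were chosen after the values were seen and searched on both strands: the interferon-gamma activated site TTCNNNGAA, the PU.1 site GAGGAAGT and the MAF half-site TGCTGAC. The Fcgr1 sequence holds TTCCCAGAA beginning 109 bases before the start, a match to the first of these. That motif occurs in 7.02% of 32851 promoters of the same length, the others in 2.44% and 3.81%. None of the 3 strings occurs in the printed windows of Folr2, Mertk or Cd163, and overlaps between motifs do not arise with 1 match. A match is a description of letters and not evidence of a bound site.

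The 10 genes are protein-coding in GENCODE M21 (GRCm38). Divided by exon length, the median level over the 41 libraries was highest for Adgre1 (36.6 CPM per kb, where CPM is counts scaled to a common library total), then Mertk (22.3), Lyve1 (16.9) and Folr2 (13.1). Cd163 (7.29), Gata6 (7.04), Fcgr1 (4.02), Icam2 (3.09) and Ly6c2 (1.17) followed on the same scale, and Timd4 was near the bottom at 0.198. All later levels are CPM, which compare libraries and not genes. Library totals ran from 28884926 to 70526624 counts. The resident genes therefore rest on many counts, while Timd4 at a median of 0.430 CPM does not, and its values carry more counting error. Ly6c2 shares 14.4% of its 50-base exon windows with other genes, chiefly Ly6c1, so its reads can be split or lost. Folr2 overlaps Gm10602 and Gata6 overlaps 1010001N08Rik on the opposite strand, and a strand setting for the counting is not given in the sources used.

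Certain libraries stand apart. Liver transcripts took 2.27% to 8.77% of the counts in 4 libraries: 1 wild-type lesion (replicate 4), 1 IL-33-treated deficient lesion (replicate 2), 1 Cre control (replicate 3) and 1 wild-type lesion after 120000 ILC2s (replicate 3). Replicate 3 of the Cre fragments in deficient recipients held a summed T cell list of 336.9 CPM against 19.996 to 25.04 in its group, and replicate 1 of the deficient fragments in Cre recipients held 88.1 CPM. Library names run in series that follow the groups in part, so that apart from the deficient against Cre-control lesions and the 250000-ILC2 against added-PBS lesions a run cannot be told apart from a group.

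**Figure D1:**
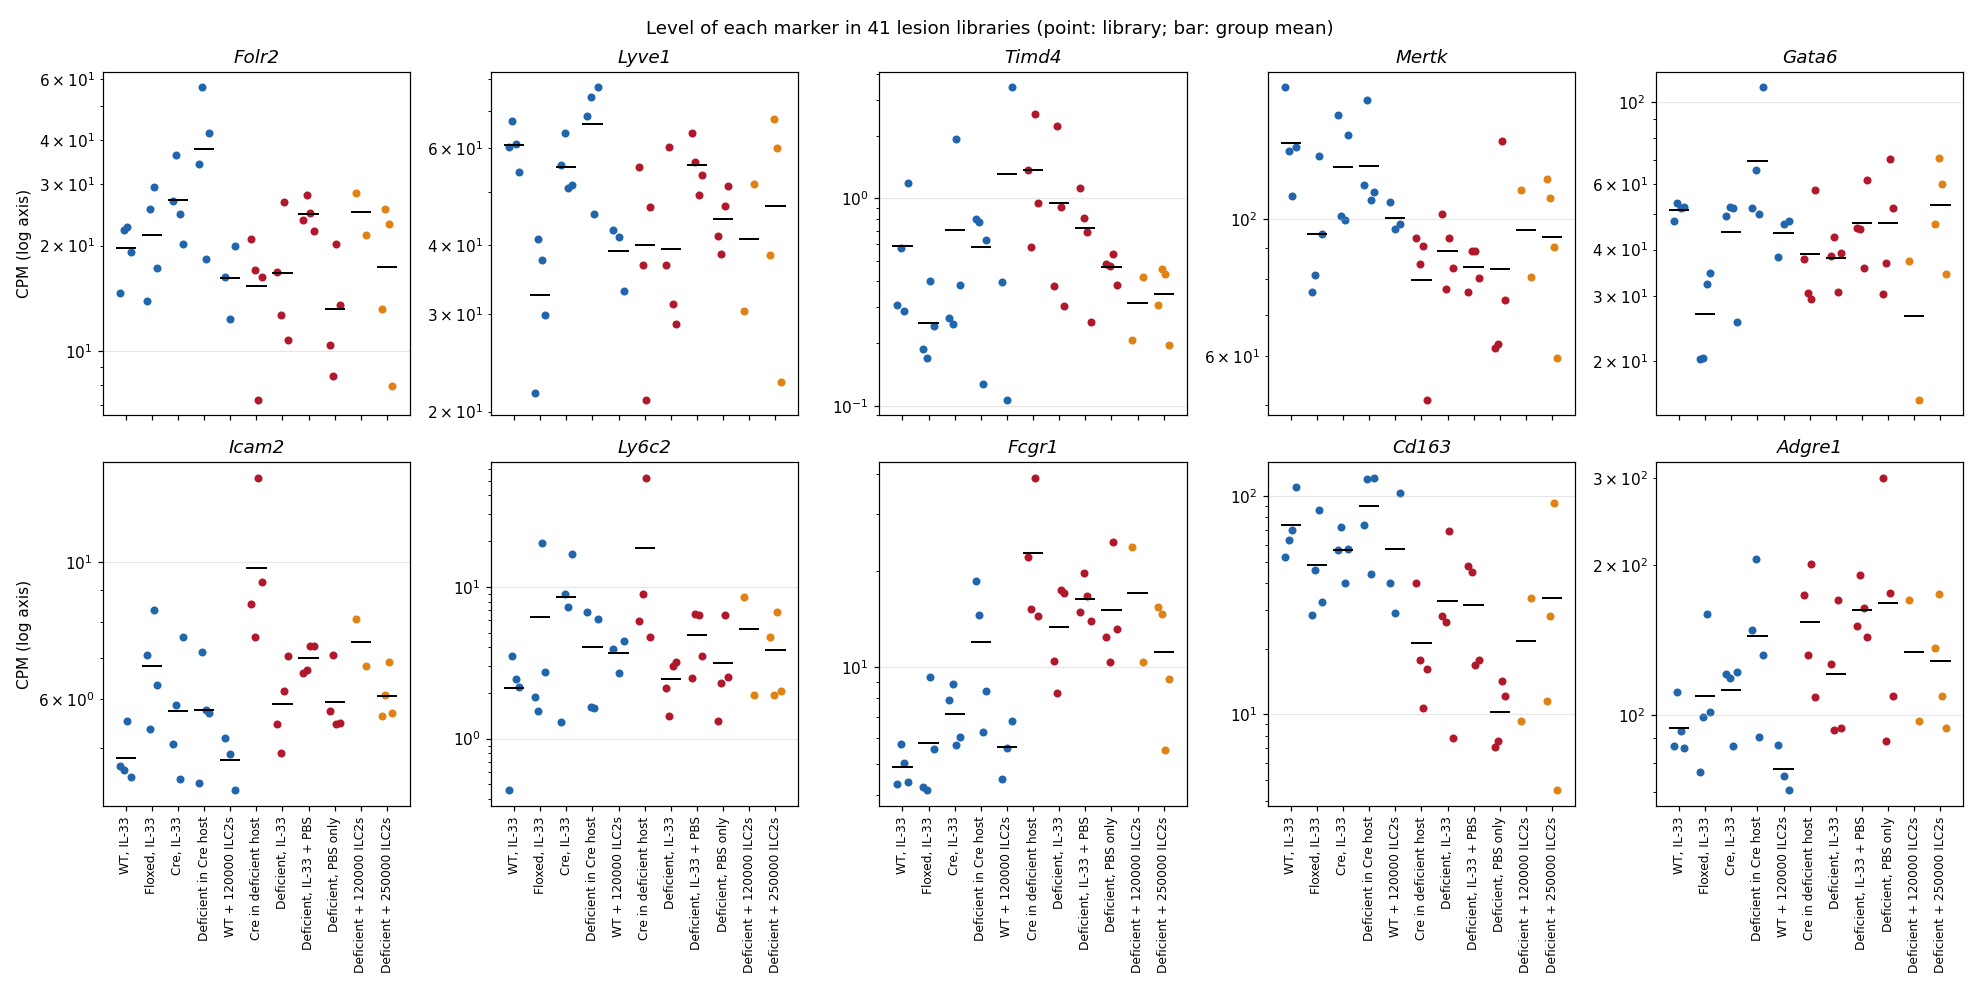
Level of each of the 10 markers (CPM, log axis) in every library, by group; points are libraries, bars are group means, blue marks competent recipients, red deficient recipients and orange deficient recipients given ILC2s. Fcgr1 lies between 4.13 and 9.32 CPM in the 12 IL-33-treated competent lesions grown in their own hosts. Some groups drawn side by side do not overlap, whereas neighbours in the order of group means overlap for every gene.

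The question put by the lesion transfer is whether these markers follow the recipient or the fragment. Lesions in deficient recipients (8 libraries) held less Folr2, Mertk, Lyve1 and Cd163 and more Fcgr1 and Icam2 than lesions in Cre-control recipients (8 libraries). Of the 10 members 6 passed at 0.05 in the quasi-likelihood test of edgeR (Benjamini-Hochberg adjusted over all genes), against 11.3% of all genes (5.02% higher, 6.29% lower). The log2 difference had a median of −0.21 over the 10 members and 0.01 over all genes. No member separated the 8 libraries of one kind fully from the other 8, as 1.49% of genes did. With respect to the fragment's own genotype none of the 10 passed, against 0.00471% of genes.

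Folr2 encodes the folate receptor of resident macrophages (chromosome 7, 101839988 to 101857194). In Cre controls it stood at 26.9, 36.3, 24.7 and 20.2 CPM, and in deficient fragments carried by Cre recipients at 34.3, 56.6, 18.3 and 42.1. In Cre fragments carried by deficient recipients it stood at 20.9, 16.98, 7.24 and 16.3 CPM, and in deficient lesions at 16.8, 12.6, 26.6 and 10.7. Most libraries from deficient recipients lie below most of those from Cre recipients, with an overlap between 18.3 and 26.6 CPM. The log2 difference was −0.997 ± 0.25 (SE, adjusted p = 0.00885), and it was called under all 23 alternatives tried (−1.16 to −0.85). Within Cre fragments it was −0.81 ± 0.35 (adjusted p = 0.18) and within deficient fragments −1.18 ± 0.36 (adjusted p = 0.0501), and neither passed alone.

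Mertk encodes the receptor that binds dying cells through Gas6 and protein S (chromosome 2, 128698956 to 128802894). Cre controls held 147.5, 101, 99.8 and 137 CPM and deficient fragments in Cre recipients 114, 156.05, 107.3 and 111. Cre fragments in deficient recipients held 93.3, 84.6, 90.7 and 51.02 CPM and deficient lesions 102, 77.0, 93.2 and 83.3. The 2 kinds of host overlap only through 1 deficient library at 102 CPM and 2 Cre-control libraries at 101 and 99.8. The log2 difference was −0.53 ± 0.16 (adjusted p = 0.0254), called in 18 of 23 alternatives and lost in 5 that left out 1 library (adjusted p up to 0.0777). Those were replicates 2 and 4 of the deficient lesions, 1 of the Cre controls, 4 of the Cre fragments in deficient recipients and 2 of the deficient fragments in Cre recipients.

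Lyve1 encodes the hyaluronan receptor shared by resident macrophages and lymphatic vessels (chromosome 7, 110850607 to 110863239). Its levels were 55.9, 64.0, 50.8 and 51.4 CPM in Cre controls and 68.5, 74.3, 45.6 and 77.2 in deficient fragments in Cre recipients. They were 55.5, 36.9, 21.0 and 46.98 CPM in Cre fragments in deficient recipients and 36.9, 60.1, 31.4 and 28.8 in deficient lesions. The log2 difference of −0.61 ± 0.19 (adjusted p = 0.0349) was called in 12 of 23 alternatives. It was not called without the 2 libraries richest in T cell transcripts, with the compared groups alone in the fit, or without any of 9 single libraries, with an adjusted p of up to 0.106 over these. The 9 were replicates 1, 3 and 4 of the deficient lesions, 1 and 2 of the Cre controls, 2 and 3 of the Cre fragments in deficient recipients and 2 and 4 of the deficient fragments in Cre recipients. None of the 6 measured lymphatic endothelium genes passed in this comparison (median log2 difference 0.04).

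Timd4 (chromosome 11, 46810800 to 46844332) did not pass, at 0.82 ± 0.53 (adjusted p = 0.35), and is the 1 resident marker whose estimate lay above 0. Its 8 libraries from deficient recipients ran from 0.304 to 2.56 CPM (median 0.929) and the 8 from Cre recipients from 0.127 to 1.94 (median 0.505). The highest Timd4 library of the wild type (1.18 CPM), of the deficient lesions (2.24), of the Cre controls (1.94) and of the wild-type mice given 120000 ILC2s (3.43) was in each case the one that held liver transcripts. The highest group mean, 1.37 CPM, was that of the Cre fragments in deficient recipients, which include none of those liver libraries. In 41 libraries Timd4 had a Spearman rho of 0.81 with the Kupffer cell list and 0.33 with the other resident macrophage genes. The part of liver tissue in the Timd4 levels was not tested beyond leaving the liver libraries out.

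Of the cavity markers, Gata6 (chromosome 18, 11052064 to 11085635) did not pass, at −0.53 ± 0.21 (adjusted p = 0.0958). It passed without replicate 4 of the Cre fragments in deficient recipients (−0.66, adjusted p = 0.0404) and without replicate 4 of the Cre controls (−0.63), and in none of the other 21 alternatives (adjusted p up to 0.275). Libraries from deficient recipients ran from 29.5 to 58.0 CPM (median 38.1) and those from Cre recipients from 25.5 to 110 (median 51.7). Icam2 (chromosome 11, 106377656 to 106388075) was higher in deficient recipients by 0.40 ± 0.12 (adjusted p = 0.0267). Its levels were 8.55, 7.56, 13.7 and 9.29 CPM in Cre fragments in deficient recipients but 5.47, 4.90, 6.19 and 7.04 in deficient lesions. Cre controls held 5.07, 5.88, 4.45 and 7.55 CPM of Icam2 and deficient fragments in Cre recipients 4.40, 7.16, 5.76 and 5.70. The higher values are thus those of 1 group, the Cre fragments in deficient recipients, which lie above all 4 Cre controls. Within Cre fragments the Icam2 difference was 0.77 ± 0.17 (adjusted p = 0.0104) and within deficient fragments 0.04 ± 0.17 (adjusted p = 0.935), while the interaction did not pass (0.73 ± 0.24, adjusted p = 0.118). Without the 2 libraries richest in T cell transcripts the call was lost, as it was with only the compared groups and without any of 5 single libraries (adjusted p up to 0.149 over these). The 5 were replicate 4 of the deficient lesions, 1 and 3 of the Cre controls, 3 of the Cre fragments in deficient recipients and 1 of the deficient fragments in Cre recipients. Of 12 blood endothelium genes 4 rose (Ly6c1, Kdr, Tek and Cdh5) and the von Willebrand factor gene Vwf fell, where 5.02% of all genes rose and 6.29% fell. The summed level of that list overlapped between hosts, at 748 to 1102 CPM in Cre and 651 to 1141 in deficient recipients. The part of endothelium in the Icam2 difference was not tested.

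Fcgr1 encodes CD64, the high-affinity IgG receptor (chromosome 3, 96282909 to 96293969). It stood at 7.93, 8.87, 5.72 and 6.06 CPM in Cre controls and at 18.6, 14.6, 6.27 and 8.43 in deficient fragments in Cre recipients. It stood at 22.1, 15.2, 39.02 and 14.5 CPM in Cre fragments in deficient recipients and at 10.5, 8.33, 17.5 and 17.1 in deficient lesions. All 4 Cre fragments in deficient recipients exceeded all 4 Cre controls, whereas deficient fragments overlapped between hosts. Across both fragments the log2 difference was 0.91 ± 0.26 (adjusted p = 0.02), called in 22 of 23 alternatives and lost without replicate 3 of the Cre fragments in deficient recipients (0.73, adjusted p = 0.057).

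By fragment, the Fcgr1 difference was 1.67 ± 0.37 in Cre fragments (adjusted p = 0.0109) and 0.16 ± 0.36 in deficient fragments (adjusted p = 0.861). The interaction did not pass (1.51 ± 0.52, adjusted p = 0.135), so the fragments were not shown to differ. Of the 10 members 2, Fcgr1 and Icam2, passed within Cre fragments, against 4.05% of genes. The groups did not overlap for those and for Mertk and Cd163, 4 of 10, against 9.38% of genes. The gap was narrow for Cd163 (nearest values 40.1026 and 40.1066 CPM) and for Icam2 (7.560 and 7.546 CPM). Within deficient fragments none of the 10 passed by edgeR's test (4.54% of genes did) and 5 had an unadjusted p under 0.05 (22.1% of genes), and groups did not overlap for Mertk and Gata6, against 13.2% of genes. For the interaction none of the 10 passed (0.414% of genes did) and 2 had an unadjusted p under 0.05 (13.9% of genes). Lesions in Cre recipients serve on one side of each of these splits and of the pooled comparison, so the splits are not separate evidence.

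The other monocyte marker did not pass the test. Ly6c2 (chromosome 15, 75108158 to 75111970) was at 0.18 ± 0.57 (adjusted p = 0.884), and its sign turned when replicate 3 of the Cre fragments in deficient recipients was left out (−0.53). That library held 52.2 CPM of Ly6c2 against 4.70 to 8.97 in the rest of its group. Ccr2 (chromosome 9, 124101950 to 124113557) was at −0.06 ± 0.25 (adjusted p = 0.905), with 176 CPM in the same library and 28.1 to 113 in the 15 others. By fragment it was 0.76 ± 0.35 in Cre fragments (adjusted p = 0.201) and −0.89 ± 0.35 in deficient fragments (0.131), and the interaction did not pass (1.66 ± 0.49, 0.0903).

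Cd163, the haemoglobin-haptoglobin receptor (chromosome 6, 124304656 to 124330527), had the largest estimate among the 10, −1.43 ± 0.46 (adjusted p = 0.0424). Cre controls held 56.4, 71.9, 40.1 and 57.1 CPM and deficient fragments in Cre recipients 74.0, 120, 43.8 and 121. Cre fragments in deficient recipients held 40.1, 17.8, 10.7 and 16.1 CPM and deficient lesions 28.3, 26.6, 69.5 and 7.80. Deficient hosts thus had the low values, apart from replicate 3 of the deficient lesions at 69.5 CPM. The call stood in 10 of 23 alternatives, with an adjusted p of up to 0.0869 in the others. It was lost without the liver libraries, without the 2 richest in T cell transcripts, and without any of replicates 1, 2 and 4 of the deficient lesions and of the Cre controls, 2, 3 and 4 of the Cre fragments in deficient recipients or 2 and 4 of the deficient fragments in Cre recipients. Adgre1 (chromosome 17, 57358691 to 57483527) was at 0.10 ± 0.21 (adjusted p = 0.802), from 93.1 to 202 CPM in deficient and 86.7 to 206 in Cre recipients. Adgre1 showed no difference beyond the spread, while Folr2 and Fcgr1 moved in opposite directions. Timd4, Ly6c2 and Ccr2, also used as resident or monocyte markers, did not pass.

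**Figure D2:**
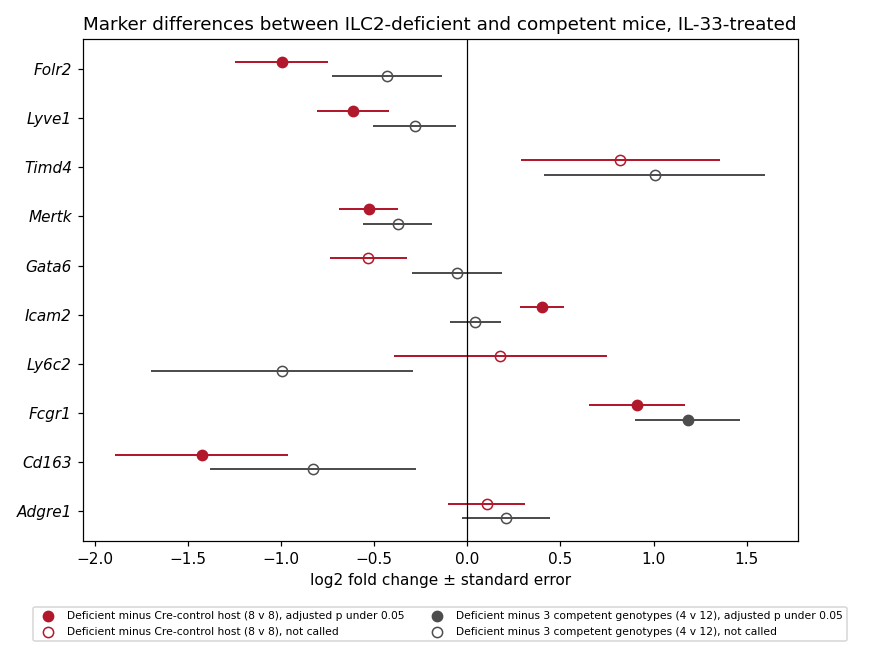
Log2 fold change (x axis, ± SE) of each marker in deficient against Cre-control recipients (red, 8 v 8 libraries) and in deficient lesions against the 3 competent genotypes (grey, 4 v 12), with filled points where the adjusted p was under 0.05. Folr2, Mertk, Lyve1 and Cd163 lie below 0 and Fcgr1 and Icam2 above it in the red series, and Fcgr1 alone is filled in the grey one; the comparisons share libraries.

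Deficient lesions were next set against the 3 competent genotypes in their own hosts (4 against 12 libraries, sharing 8 with the transfer comparison). Fcgr1 alone passed, 1 of 10, against 11% of genes (6.24% higher, 4.72% lower). It was higher by 1.18 ± 0.28 (adjusted p = 0.00615), at 13.3 ± 4.62 CPM in deficient lesions against 4.87 ± 0.67 in wild type, 5.81 ± 2.43 in floxed and 7.14 ± 1.505 in Cre controls (SD, n = 4 each). The 4 wild-type libraries held 4.32, 5.77, 5.01 and 4.38 CPM and the 4 floxed ones 4.22, 4.13, 9.32 and 5.56, so a single floxed library exceeded the lowest deficient value of 8.33, as did 1 Cre control. It was called in 21 of 22 alternatives, the exception being without replicate 4 of the deficient lesions (1.06, adjusted p = 0.0534). Against Cre controls alone, from the same run of library names, the difference was 0.90 ± 0.37 and did not pass (adjusted p = 0.16). In that comparison none of the 10 passed, against 3.83% of genes, and 2 had an unadjusted p under 0.05 (19.7% of genes).

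The remaining members did not pass against competent lesions. Folr2 was at −0.43 ± 0.29 (adjusted p = 0.38), Lyve1 at −0.28 ± 0.23 (0.466), Mertk at −0.37 ± 0.19 (0.199) and Timd4 at 1.01 ± 0.59 (0.295). Gata6 was at −0.06 ± 0.24 (0.917), Icam2 at 0.04 ± 0.14 (0.886), Ly6c2 at −0.995 ± 0.70 (0.4), Cd163 at −0.83 ± 0.55 (0.37) and Adgre1 at 0.21 ± 0.24 (0.637). Floxed controls were low for several of them: Lyve1 stood at 32.5 ± 8.63 CPM there, against 60.6 ± 5.25 in wild type and 55.5 ± 6.07 in Cre controls (SD, n = 4 each).

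A description of balance is the log2 CPM of Fcgr1 minus that of Folr2 within a library. It averaged −1.99 ± 0.19 in wild type, −1.90 ± 0.48 in floxed and −1.90 ± 0.19 in Cre controls, −1.51 ± 0.36 in wild type given 120000 ILC2s and −1.67 ± 0.61 in deficient fragments in Cre recipients (SD). In deficient lesions it averaged −0.30 ± 0.65 with IL-33, 0.20 ± 0.16 with PBS and −0.60 ± 0.08 with IL-33 and added PBS. It was −0.60 ± 1.08 after 250000 ILC2s and −0.65 ± 0.56 after 120000, and 0.54 ± 1.26 in Cre fragments in deficient recipients. The 5 groups with competent hosts therefore lie from −1.99 to −1.51 and the 6 with deficient hosts from −0.65 to 0.54. Single libraries overlap, since 1 library given 250000 ILC2s was at −2.05 and 1 deficient fragment in a Cre recipient at −0.88. No test was made of this difference, which was formed with both genes' results known.

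**Figure D3:**
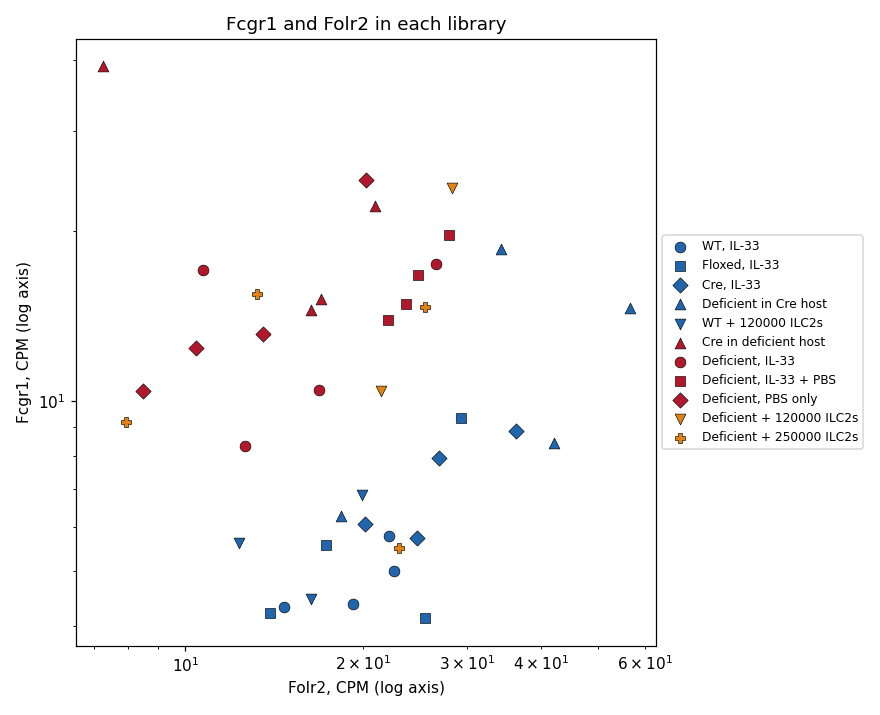
Fcgr1 (y axis, CPM, log) against Folr2 (x axis, CPM, log) in each of 41 libraries, with color for the recipient's genotype and ILC2 transfer and shape for the group. Libraries from competent hosts held at most 18.6 CPM of Fcgr1. The hosts overlap along both axes, and Folr2 fell to 12.3 CPM in a competent host and reached 28.3 CPM in a deficient host. The Cre fragment in a deficient recipient at 39.02 CPM Fcgr1 and 7.24 CPM Folr2 is at the upper left.

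IL-33 was compared with PBS in deficient mice (4 against 4, where deficient lesions again serve). None of the 10 passed by edgeR's test or DESeq2, against 0.00941% of genes, and Cd163 alone had an unadjusted p under 0.05 (6.76% of genes). Cd163 was 7.08, 7.54, 14.2 and 12.2 CPM with PBS and 28.3, 26.6, 69.5 and 7.80 with IL-33, a log2 difference of 1.69 (adjusted p = 0.634). The groups overlap through the IL-33-treated library at 7.80. Fcgr1 stood at 12.4, 10.4, 24.6 and 13.1 CPM with PBS against 10.5, 8.33, 17.5 and 17.1 with IL-33, and Folr2 stood at 10.4, 8.47, 20.2 and 13.5 CPM with PBS. The estimates ran from −0.48 (Adgre1) to 1.69 (Cd163). The Adgre1 estimate was −0.04 without PBS replicate 1, which held 299.9 CPM against 88.5 to 176 in its group, and that of Cd163 was 1.03 without IL-33 replicate 3.

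ILC2 transfer moved no member past the threshold. After 250000 ILC2s against added PBS (4 against 4), 0 of 10 passed by edgeR's test or DESeq2, none had an unadjusted p under 0.05 (8.7% of genes), and 0% of genes passed. Folr2 stood at 13.2, 25.5, 23.0 and 7.94 CPM after transfer and at 23.7, 27.9, 24.8 and 22.0 with added PBS. Fcgr1 stood at 15.4, 14.7, 5.51 and 9.17 CPM after transfer and at 14.8, 19.7, 16.7 and 13.9 with added PBS. After transfer 2 libraries (5.51 and 9.17 CPM) lay within the Fcgr1 range of the 12 competent lesions, and the groups overlap for both genes. Estimates ran from −1.04 (Timd4) to 0.17 (Gata6). Ccr2 stood at 44.6, 43.4, 36.4 and 50.8 CPM after transfer and at 86.6, 89.2, 62.3 and 56.4 with added PBS, without overlap, as for 4.65% of genes. Its log2 difference of −0.75 ± 0.35 did not pass (adjusted p = 0.571, unadjusted p = 0.0396).

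With 120000 ILC2s in deficient mice (2 against 4), 0 of 10 passed by either tool and none had an unadjusted p under 0.05 (0% and 1.88% of genes). Fcgr1 was 23.8 and 10.4 CPM there and Folr2 28.3 and 21.4, and estimates ran from −1.59 (Timd4) to 1.10 (Ly6c2). In wild-type mice (3 against 4) 0 of 10 passed by either tool (0% of genes called), and Lyve1 alone had an unadjusted p under 0.05 (3.96% of genes). Lyve1 was 42.6, 41.3 and 33.1 CPM after transfer against 60.2, 67.1, 61.0 and 54.2 without, a log2 difference of −0.64 (adjusted p = 0.999). Groups did not overlap for Lyve1, Mertk and Gata6, 3 of 10, as for 3.23% of genes. Mertk was 106.8, 96.6 and 98.2 CPM after transfer and 163, 129, 109 and 131 without.

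Among the competent genotypes, none of the 10 differed between Cre and floxed controls by edgeR's test or DESeq2 (0.329% of genes did), although 2 had an unadjusted p under 0.05 (14.5% of genes). Lyve1 was 55.9, 64.0, 50.8 and 51.4 CPM in Cre controls and 21.6, 40.98, 37.5 and 29.9 in floxed controls (log2 0.77, adjusted p = 0.213), without overlap, as for 9.52% of genes. Wild type against both controls gave 0 of 10 by either tool (2.65% of genes), with 4 at an unadjusted p under 0.05 (19.8% of genes) and estimates from −1.78 (Ly6c2) to 0.56 (Gata6). The 2 cohorts of IL-33-treated deficient lesions, with and without added PBS, gave 0 of 10 by either tool and none at an unadjusted p under 0.05 (0.0141% and 16.4% of genes), with estimates from −0.40 (Timd4) to 0.96 (Ly6c2). Ccr2 was higher in each library with added PBS than in the 4 without (28.1 to 52.4 CPM), as 10.1% of genes lay apart, but did not pass (0.95 ± 0.35, adjusted p = 0.183). For the fragment's genotype, where again 0 of 10 passed by either tool, Icam2 and Ly6c2 had an unadjusted p under 0.05 (3.92% of genes) and estimates ran from −1.98 (Ly6c2) to 0.66 (Cd163).

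Over all 11 groups, mean Folr2 ran from 13.1 ± 5.14 CPM in PBS-treated deficient lesions to 37.8 ± 16.0 in deficient fragments in Cre recipients (SD, n = 4 each). Fcgr1 ran from 4.87 ± 0.67 in wild type to 22.7 ± 11.4 in Cre fragments in deficient recipients, and Cd163 from 10.2 ± 3.50 with PBS to 89.8 ± 37.7 in deficient fragments in Cre recipients (n = 4 each). The highest group mean was 1.67 times the lowest for Mertk and 2.17 times for Adgre1, against 8.35 times for Ly6c2 and 8.76 times for Cd163. When groups were ordered by mean, no pair of neighbours had ranges that did not overlap, for any of the 10 genes.

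The other genes of each class were read from fixed lists in the transfer comparison. Of 13 further resident macrophage genes 4 fell and none rose in deficient recipients (median log2 difference −0.71): the lectin ficolin-A gene Fcna (−1.91 ± 0.37, adjusted p = 0.00114), the leukotriene synthase Ltc4s (−1.32 ± 0.28), the chemokine Ccl8 (−1.15 ± 0.31) and the mannose receptor Mrc1 (−1.14 ± 0.24). Of 13 further monocyte genes 2 rose and none fell (median 0.60): Ms4a4c (2.59 ± 0.42) and Plac8 (1.51 ± 0.42). Of 12 further cavity macrophage genes Garnl3 (−0.45 ± 0.13) and the retinoic acid receptor Rarb (−0.56 ± 0.17) fell (median 0.06). Of 14 general macrophage genes 1, the fractalkine receptor Cx3cr1, rose (1.52 ± 0.22) and none fell (median −0.42), and the growth factor receptor Csf1r was at −0.44 ± 0.18 (adjusted p = 0.106). The lists were chosen with results of these data known, and their counts are set beside 11.3% of genes called. The monocyte, cavity and general macrophage shares are near that of all genes.

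The partners of the receptors gave the following in the same comparison, where 11.3% of all genes were called. None of 11 genes of apoptotic-cell uptake other than Mertk passed: its ligands Gas6 and Pros1 were at 0.17 ± 0.14 (adjusted p = 0.482) and −0.02 ± 0.10 (0.927), and its relatives Axl and Tyro3 at −0.24 ± 0.09 (0.0813) and −0.09 ± 0.17 (0.798). Of 5 other Fc receptor genes 2 fell, the inhibitory Fcgr2b (−0.76 ± 0.23, adjusted p = 0.0254) and the neonatal receptor Fcgrt (−0.80 ± 0.18), whereas Fcgr1 rose. Fcgr3 was at −0.35 ± 0.23 (0.357) and Fcgr4 at 0.50 ± 0.34 (0.379). Of 10 growth factor and chemokine genes 4 fell: the GM-CSF receptor chains Csf2ra (−0.93 ± 0.19) and Csf2rb (−0.80 ± 0.20), Ccl7 (−0.92 ± 0.29) and Tgfb1 (−0.58 ± 0.15). Csf1, which sustains macrophages, was at −0.18 ± 0.24 (0.688) and Ccl2, which draws monocytes, at −0.36 ± 0.34 (0.545). Haptoglobin (Hp), the plasma protein whose haemoglobin complex Cd163 binds, was at −0.34 ± 0.96 (0.867), while in its list of 9 the iron exporter Slc40a1 rose (1.26 ± 0.41) and Lrp1 fell (−0.42 ± 0.13). None of 9 retinoic acid genes passed, with the synthetic enzyme Aldh1a2 at 0.74 ± 0.36 (0.196).

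In deficient against competent lesions, where 11% of all genes were called, the same lists gave the following calls. Of the 13 resident genes Fcna (−1.41 ± 0.46) and Ltc4s (−1.14 ± 0.34) fell, and of the 13 monocyte genes Ms4a4c (2.37 ± 0.42), Ms4a6c (1.05 ± 0.30) and the proteoglycan gene Vcan (0.79 ± 0.21) rose. Of the 12 cavity genes Tgfb2 rose (0.86 ± 0.26), and of the 9 retinoic acid genes Aldh1a2 (1.28 ± 0.39) and Rdh10 (1.25 ± 0.32) did. The resident and cavity shares are near that of all genes. Differences between the 2 comparisons were not tested, and they share 8 libraries.

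Genes of lists for other cells and for the interferon response differed between hosts in the same libraries, and their counts are again set beside 11.3% of genes called. Of 15 interferon-response genes 9 rose in deficient recipients (median 1.39), the largest being Ifi44 (1.83 ± 0.43) and Ifit1 (1.74 ± 0.38). The summed level of that list was 157.9 to 248.6 CPM in Cre controls and 156.6 to 792 in deficient fragments in Cre recipients, against 201 to 535 in deficient lesions and 326 to 2481 in Cre fragments in deficient recipients. Of 6 T cell genes Cd8a (2.31 ± 0.68) and Cd4 (1.42 ± 0.41) rose, with summed list levels of 7.82 to 10.9 and 13.02 to 88.1 CPM in Cre hosts and 12.3 to 18.95 and 19.996 to 336.9 in deficient hosts. Of 5 eosinophil genes Ear2 (−3.01 ± 0.28) and Siglecf (−0.86 ± 0.25) fell, with summed levels of 33.6 to 60.7 CPM in Cre hosts and 7.20 to 10.9 in deficient hosts. Of 8 mesothelium genes 1, Lrrn4, fell (−1.43 ± 0.46), a share near that of all genes, with summed levels of 124 to 288 CPM in Cre hosts and 86.9 to 169 in deficient hosts. Of 5 adipocyte genes Adipoq (2.81 ± 0.88) and Lep rose, with summed levels of 28.7 to 199 and 22.0 to 83.9 CPM in Cre hosts and 19.1 to 628 and 29.03 to 225 in deficient hosts, which overlap. The part of these genes' cells in the marker differences was not tested.

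How each marker followed these lists over the 41 libraries is given as a description, since the libraries share groups, tissue makeup and depth. Fcgr1 followed the monocyte list (Spearman rho 0.91), the T cell list (0.81) and the interferon list (0.74), and the genes most like it were Ms4a6c (0.93), Ms4a6b (0.92) and Serpinb9 (0.90). Adgre1 followed the general macrophage list (0.81), the monocyte list (0.75) and the T cell list (0.68), and was most like Aoah, Fyb and Ebi3 (0.88 to 0.90). Folr2 followed the resident list (0.82) and was most like Ap2a2 (0.81), Itsn1 and F13a1 (0.79 each). Cd163 followed the resident (0.89) and eosinophil lists (0.76) and ran against the interferon list (−0.57), with Hfe, Bfar and Fcna most like it (0.87 to 0.90). Mertk had a rho of 0.66 with the Fc receptor list, 0.56 with the eosinophil list and 0.52 with the general macrophage list. With its own resident list it had 0.44, and 0.28 with group means removed. With group means removed, Mertk had 0.87 with the general macrophage list, 0.86 with the Fc receptor list and 0.66 with the monocyte list, against −0.10 with the last over all libraries. Mertk was most like Man2b1 (0.88), Npc1 (0.88) and Vps26c (0.87).

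Like Mertk, the remaining members Gata6, Icam2, Ly6c2, Lyve1 and Timd4 had higher values with a list outside their own class. Gata6 had a rho of 0.27 with the other cavity macrophage genes but 0.76 with the mesothelium list, and the genes most like it were Myrf (0.86), Rpp25 (0.85) and its antisense neighbour Gata6os (0.85). Icam2 had −0.01 with the cavity genes and 0.56 with blood endothelium, and was most like 1500009L16Rik (0.75), the endothelial receptor gene Aplnr (0.70) and Rflnb (0.67). Ly6c2 had 0.39 with the monocyte list and 0.75 with the B and plasma cell list, and was most like Septin1 (0.77), Grap2 (0.75) and Gpr55 (0.73). Lyve1 had 0.53 with the resident list, 0.60 with mesothelium and 0.36 with lymphatic endothelium, and was most like Fmo2, Mrc1 and Adgrd1 (0.72 to 0.73). Timd4 was most like the scavenger receptor gene Marco (0.80), C1ra and Kmo (0.78 each). With group means removed, Lyve1 had 0.58 with the resident and 0.29 with the mesothelium list, and Icam2 had 0.26 with blood endothelium. Gata6 then had 0.58 with mesothelium and 0.40 with the cavity genes. Ly6c2 then had 0.77 with the eosinophil, 0.71 with the dendritic cell and 0.70 with the B and plasma cell list. Within groups the order of the lists thus turned for Lyve1, the eosinophil list came first for Ly6c2, and the value for Icam2 was lower. In these whole lesions the levels of Gata6, Icam2, Ly6c2, Timd4, Mertk and Lyve1 are therefore given by gene. They are not read as amounts of cavity, monocyte-derived or resident macrophages. Fcgr1 was highest with its own list but also followed the T cell (0.81) and interferon (0.74) lists. With group means removed, it had 0.81 with the monocyte, 0.81 with the Fc receptor and 0.72 with the general macrophage list. The Fcgr1 level is likewise not read as an amount of monocyte-derived cells.

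**Figure D4:**
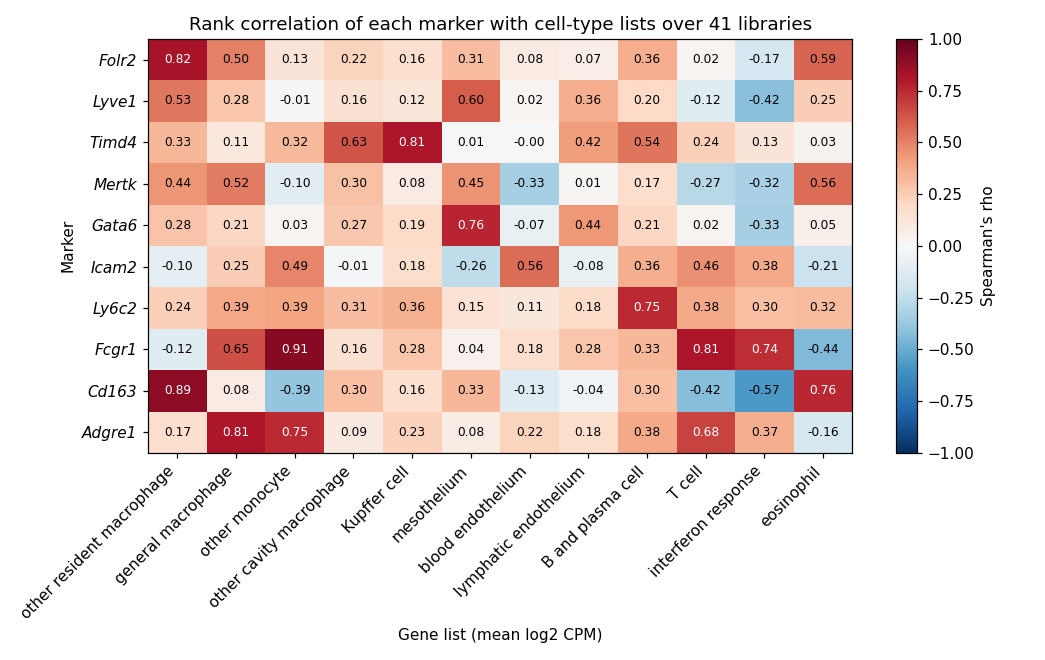
Spearman's rho over 41 libraries between each marker (rows, log2 CPM) and the mean log2 CPM of 12 gene lists (columns), with color from −1 to 1. Fcgr1 is highest with the monocyte list (0.91), Folr2 (0.82) and Cd163 (0.89) with the resident list, Gata6 with mesothelium (0.76) and Timd4 with Kupffer cells (0.81).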

How the data were processed

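RNA from snap-frozen lesions was sequenced and, per the submitters' processing notes, handled with Trimmomatic, STAR, HTSeq, edgeR and limma on GRCm38; versions, annotation and strand setting are not given in the sources used. The authors deposited raw counts, 1 table of 21249 genes whose lowest total over 41 libraries is 411, so low genes had been left out already and no further filter was applied. The 10 members passed that limit. The test was the two-sided quasi-likelihood F-test of edgeR 4.0.16 (R 4.3.3) with TMM scaling and robust dispersions, Benjamini-Hochberg adjusted over all genes at 0.05, in 1 model of 11 group means, which share 1 estimate of spread. Standard errors were computed as the size of the log2 fold change divided by the root of F. CPM use TMM-scaled library sizes, and log2 CPM a prior count of 2. The test was also run on simulated independent counts that held no libraries rich in liver or T cell transcripts. That run therefore says nothing about how such libraries affect the calls. Groups and replicate numbers came from the titles. No 2 libraries of a group agreed within sampling noise (58 pairs). The alternatives were DESeq2 1.42.0, RLE scaling, a low-count filter, fewer groups in the fit, a replicate block and leaving out libraries. Named genes are the 10 members and Ccr2, up to 4 called genes per list by size of change, fixed partner genes, and the 3 genes most like each member. Results for some listed genes are not reported here, and list counts leave them out. Members and lists were chosen with earlier results of these data known.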

Additional observations from a re-analysis of the deposited data

Results flagged for a closer look

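In groups of 4 libraries, a library was taken to stand apart when its gap to the nearest other exceeded 0.829 of the group's range (Dixon's limit, tested for 90 combinations of member and group). This picked out 8 values, and chance alone gives about 1 in 20. Timd4 was 1.94 CPM in replicate 3 of the Cre controls, a library with liver transcripts, against 0.247 to 0.383 in the others. Adgre1 was low in that same library, at 86.7 CPM against 118.6 to 122.3. Mertk was 156.05 CPM in replicate 2 of the deficient fragments in Cre recipients, against 107.3 to 114, and 133.7 CPM in replicate 3 of the PBS-treated deficient lesions, against 61.8 to 73.9. Gata6 was 25.5 CPM in replicate 4 of the Cre controls, against 49.3 to 52.2. Icam2 was 7.07 CPM in replicate 2 of the PBS-treated deficient lesions, against 5.47 to 5.73. Ly6c2 was 52.2 CPM in replicate 3 of the Cre fragments in deficient recipients, against 4.70 to 8.97, and 19.3 CPM in replicate 3 of the floxed controls, against 1.53 to 2.73.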

How the results depend on the processing

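In the recipient comparison 6 members passed with DESeq2, RLE scaling, the low-count filter and the replicate block, 5 without the liver libraries, 4 with only the compared groups and 3 (Fcgr1, Folr2 and Mertk) without the 2 libraries richest in T cell transcripts, a choice made after seeing the data. Leaving out 1 library gave 2 to 6 members; 2 remained without replicate 4 of the deficient lesions, replicate 1 of the Cre controls or replicate 3 of the Cre fragments in deficient recipients. Of deficient against competent lesions 0 to 1 passed, and over all genes 698 to 2462. The cause was not tested.

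Signs turned only for members that did not pass: Ly6c2 under the replicate block (−0.15), without the T cell libraries (−0.35) and over single omissions (−0.53 to 0.45), and Adgre1 over omissions (−0.0010 to 0.23). In deficient against competent lesions omissions gave Gata6 −0.12 to 0.032, Icam2 −0.038 to 0.13 and Adgre1 −0.0035 to 0.33. Omissions gave Fcgr1 −0.34 to 0.15 for IL-33 against PBS, Gata6 −0.0023 to 0.33 after 250000 ILC2s and Ly6c2 −0.35 to 1.80 after 120000 in deficient mice. Timd4 turned without the liver libraries in wild-type mice given ILC2s (−0.62; omissions −1.21 to 1.74) and with added PBS (0.45; omissions −0.72 to 0.43).

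Genes called over the whole table moved as follows. For the fragment's genotype the count of 1 became 13 with DESeq2, 2 without the T cell libraries, 0 without liver libraries or with only the compared groups, and 0 to 7 over omissions. For IL-33 against PBS the count of 2 became 18 with DESeq2, 0 without liver libraries or with only the compared groups, and 0 to 4 over omissions. DESeq2 called 14 genes after 250000 ILC2s, 9 after 120000 in deficient mice (omissions 0 to 1) and 3 in wild-type mice (omissions 0 to 2). Cre against floxed controls (70) gave 20 with only the compared groups, 228 with DESeq2 and 45 to 70 over omissions. Wild type against both controls (563) gave 55, 30 and 1207 without liver libraries, with only the compared groups and with DESeq2, and 87 to 979 over omissions. Added PBS (3) gave 163, 0 and 768 in the same order, and 0 to 423 over omissions. Same-numbered libraries of different groups had a mean correlation of 0.02 (−0.80 to 0.87), so numbers did not pair them, and the replicate block changed no member count.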
